A study of Mus musculus with 12 samples.

Results

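The mouse zinc finger genes named Zfp followed by a number from 700 to 999, with nothing after the number, made up 99 of the 26061 genes in the deposited table. They were chosen by their symbols alone, and their levels were measured by RNA-seq of polyadenylated RNA in 12 libraries of mouse embryonic stem cells (ESCs). All 12 libraries came from Tet2 knockout (KO) ESCs, in which exon 14 of Tet2 had been targeted, and all carried a short hairpin RNA against Setdb1 (shSetdb1). The KO cells had been given back either wild-type (WT) TET2 or a catalytic mutant of TET2 from a stably integrated PiggyBac transposon. Each line was grown without feeders in 2i medium with LIF, which holds ESCs in the naïve state, or in serum medium with LIF, which gives primed ESCs in the terms of the study. The groups were therefore naïve WT, naïve mutant, primed WT and primed mutant, with 3 libraries in each. Lentiviral transduction was followed by puromycin from 48 hours after infection, and cells were collected after 3 days of selection. No library with a control hairpin was analysed here, so levels before SETDB1 depletion were not measured. How many separate derivations of the KO cells the WT and mutant lines stand for is not stated. The labels do not say whether the 3 libraries of a group came from separate cultures, so the p-values measure the spread between these libraries.

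C2H2 zinc finger proteins bind DNA through arrays of short zinc-coordinating units. Many of them also carry a Krüppel-associated box (KRAB), which binds TRIM28 (also called KAP1), and TRIM28 in turn recruits the histone H3 lysine 9 methyltransferase SETDB1 to the bound site. In mouse ESCs this pathway keeps many endogenous retroviruses silent. KRAB zinc finger genes lie in clusters of similar copies, many of them particular to rodents, and ZFP809, which binds the proline primer binding site of murine leukaemia viruses, is the best known member of the range studied here.

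All 99 genes were found in the mm9 annotation, on 17 chromosomes. Chromosome 7 held 21 of them, chromosome 17 held 18, chromosome 8 held 15 and chromosome 13 held 10. Of the 99, 53 fell into 9 clusters, each a run of at least 4 members with neighbours starting less than 2 Mb apart. A coding transcript was annotated for 98 genes, the exception being Zfp783. In its translation 70 genes matched the letters of a KRAB A box and 28 did not. KRAB members held a median of 11 zinc fingers and members without the box a median of 6, with up to 23 fingers in 1 protein, and no finger was matched in 7 genes, among them Zfp703 and Zfp750. The exons of the KRAB members that were tested were poor in G and C, with a median GC content of 41.9%, against 49.97% for those without a KRAB box.

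Similar copies can share reads, and reads with several equally good positions had been placed at random by the authors' aligner. Of the 99 genes, 46 had no 75-base stretch of exon, the read length, that also occurred elsewhere in the genome. More than 10% of such stretches were shared in 19 genes and more than 50% in 2, Zfp781 with 100% and Zfp960 with 76.1%, so the values of these 19 are uncertain. The libraries did not keep the strand of the RNA, and reads from a gene and from an overlapping gene on the opposite strand could not be told apart.

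The members had low RNA levels as a class, and together they took between 0.165% and 0.27% of the 8066662 to 21335933 gene reads of a library. The deposited values are on a variance-stabilised log2 scale on which 3.81 stands for no read. Of the 99 genes, 95 had a mean of at least 1 above that lowest value and were tested, among 14185 genes in all. The 3 tested members closest to that limit were Zfp783, Zfp964 and Zfp939, and the 4 members below it were Zfp784, Zfp831, Zfp735 and Zfp957. The last pair had no read in any library, which allows up to 3 of the 150476718 gene reads (counting error only). The median level of the 95 tested members was 7.42, against 8.25 over all genes tested. Per length, their median was 45.25 normalised reads per kilobase of exon, against 82.22 for all genes. The members with the highest mean level per kilobase were Zfp958 with 633.0 normalised reads, Zfp706 with 627.3, Zfp771 with 462.2, Zfp936 with 431.7 and Zfp951 with 373.4, and Zfp809 had 273.7. Of these, Zfp936 shared 20.3% of its read-length stretches, Zfp951 13.2% and Zfp706 11.4%.

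The cells carried ESC markers at high level in all groups, with a mean over 8 ESC markers from 11.63 to 12.73 on the log2 scale. The mean of 6 primed markers ranged from 6.26 to 6.96 in naïve and from 8.14 to 8.94 in primed libraries, and the ranges did not overlap. The mean of 6 naïve markers ranged from 10.13 to 10.60 in naïve and from 9.80 to 10.50 in primed libraries, which overlapped. Means of markers of other lineages ranged in naïve and primed libraries from 4.48 to 5.20 and from 4.72 to 4.85 for 4 endoderm genes, from 4.63 to 5.15 and from 5.22 to 5.46 for 3 mesoderm genes, from 4.72 to 5.11 and from 4.41 to 4.56 for 3 fibroblast genes, and from 3.81 to 3.99 and from 5.23 to 5.51 for 3 trophoblast genes. The neural marker found was at 7.31 to 7.85 in naïve and 8.72 to 9.07 in primed libraries. In bulk RNA, fewer cells of a type and less RNA per cell cannot be told apart, and the part of these levels in the differences below was not tested. Tet2 was higher in the WT than in the mutant line, by 2.16 in naïve (adjusted p = 0.0154) and by 1.84 in primed cells (adjusted p = 0.0297; limma, Benjamini-Hochberg). Setdb1 differed by 0.13 and 0.16 (adjusted p = 0.857 and 0.788). The study reports similar WT and mutant TET2 protein in its rescue lines by western blot, and protein was not measured in these libraries. The 14 Y-linked genes tested had a median WT minus mutant difference of 1.35 in naïve and 1.48 in primed cells, so the lines differed at these genes as well as in their TET2 construct.

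Replicate 3 of the naïve WT group and replicate 3 of the primed mutant group stood apart at the KRAB members. The median deviation of the 69 tested KRAB members from each gene's mean over all libraries was 0.55 and 0.49 in these 2 libraries, and from -0.26 to 0.06 in the other 10. The 2 libraries were picked by these KRAB levels, so a high count of KRAB members above the other 10 follows in part from that choice. Both libraries lay above all other 10 for 35 of the 69 KRAB members, or 50.7%, against 6.58% of all genes tested. By their median the 25 tested members without a KRAB box did not stand out, at 0.06 and 0.05 in these 2 libraries and from -0.18 to 0.23 in the others. Of these, 4 genes, or 16%, lay above all other 10, which is still above the 6.58% of all genes tested. The 227 other numbered Zfp genes tested had medians of 0.21 and 0.21 in these 2 libraries and of -0.22 to 0.10 in the others, and 22.9% lay above all other 10. GC-poor genes outside the Zfp family moved in the same 2 libraries. For 2740 non-Zfp genes in the central GC range of the KRAB members, from 38.1% to 44.6%, the medians were 0.28 and 0.24, against -0.21 to 0.10 in the other libraries, and 20.2% lay above all other 10. For the tenth of non-Zfp genes with the lowest GC content, 1317 genes, the medians were 0.41 and 0.32, against -0.27 to 0.11, and 31.4% lay above. After each library's deviation had been smoothed on exon GC content and subtracted, the KRAB medians in the 2 libraries were 0.23 and 0.24, against -0.14 to 0.11 in the others. Primed mutant replicate 3 also had the highest level of Zscan4d, a marker of 2-cell-like cells, at 8.60 against 5.10 to 7.11 in the other 11, and naïve WT replicate 3 had 6.16. The part of GC content, or of any cell state, in the level of the KRAB members was not tested. The main results are therefore given with and without these 2 libraries.

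**Figure D1:**
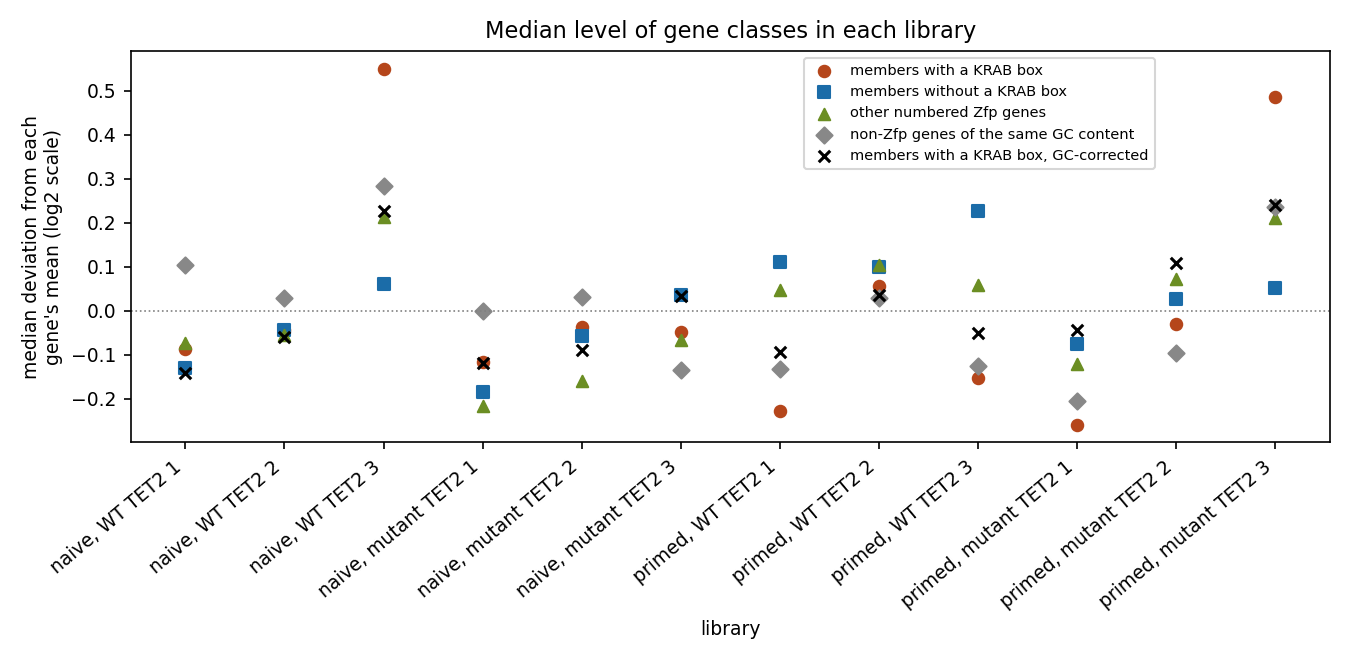
Median deviation of gene classes from each gene's mean over the 12 libraries (vertical axis, log2 scale), for each library (horizontal axis); each symbol is the median over a class of genes, and crosses show the KRAB members after correction for exon GC content. The KRAB members sit at 0.55 in naïve WT replicate 3 and 0.49 in primed mutant replicate 3, and between -0.26 and 0.06 in the other 10 libraries.

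The sequence upstream of the start site differed in CpG content between members. A 250-base window upstream of the start was given by RefSeq (GRCm38.p6) for 64 of the 69 tested KRAB members and 18 of the 25 without the box. The median ratio of observed to expected CpG was 0.501 for the KRAB members, 0.688 for those without the box and 0.728 for the 9477 tested genes with an entry. A ratio over 0.6 was found for 35.9% of the KRAB members and 66.7% of those without the box, against 67.4% of the tested genes and 34.5% of all 27025 windows in the table. The ETS motif CCGGAAG, read on both strands, occurred in 10.9% of the KRAB windows, 13.9% of those of tested genes and 7.05% of all windows. In the same order, the CRE motif TGACGTCA occurred in 1.56%, 2.76% and 1.62%, and the palindromic NRF1 motif in 1.56%, 1.68% and 0.781%. The windows of a pair of genes that were higher in naïve cells, Zfp931 (chr2:178078426-178078675, minus strand) and Zfp819 (chr7:43606919-43607168, plus strand), and of a pair that were lower, Zfp956 (chr6:47953140-47953389, plus strand) and Zfp771 (chr7:127244276-127244525, plus strand), are given 5′ to 3′ to show this range, with each CpG in capitals. They hold 2, 17, 11 and 18 CpG in that order, and none of the 3 motifs.
Zfp931: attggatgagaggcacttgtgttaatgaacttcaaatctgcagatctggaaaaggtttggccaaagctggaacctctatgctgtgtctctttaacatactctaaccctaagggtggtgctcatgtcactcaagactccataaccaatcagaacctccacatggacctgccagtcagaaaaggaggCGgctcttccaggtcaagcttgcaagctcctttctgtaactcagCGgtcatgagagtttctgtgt
Zfp819: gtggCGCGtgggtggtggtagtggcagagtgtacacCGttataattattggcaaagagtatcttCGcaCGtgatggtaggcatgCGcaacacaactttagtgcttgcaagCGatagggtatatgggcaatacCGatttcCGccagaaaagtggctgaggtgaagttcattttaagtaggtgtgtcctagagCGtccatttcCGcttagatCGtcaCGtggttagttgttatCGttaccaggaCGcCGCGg
Zfp956: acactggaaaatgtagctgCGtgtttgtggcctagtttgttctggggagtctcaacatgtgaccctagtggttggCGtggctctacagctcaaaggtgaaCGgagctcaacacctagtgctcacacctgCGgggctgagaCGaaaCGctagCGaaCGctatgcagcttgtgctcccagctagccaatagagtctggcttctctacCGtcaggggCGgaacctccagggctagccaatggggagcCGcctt
Zfp771: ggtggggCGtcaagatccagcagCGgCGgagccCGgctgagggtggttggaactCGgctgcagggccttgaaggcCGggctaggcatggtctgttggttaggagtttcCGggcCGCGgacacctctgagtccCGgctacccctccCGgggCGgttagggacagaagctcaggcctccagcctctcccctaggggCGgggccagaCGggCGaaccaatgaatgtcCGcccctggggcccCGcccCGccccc

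The first comparison asks how the zinc finger genes differ between the naïve and the primed state, as the mean over both rescue lines. Of the 95 members tested, 33 passed an adjusted p under 0.05 (limma across all genes, Benjamini-Hochberg), which is 34.7%, against 51.8% of all genes tested. Of the 33, 15 were higher and 18 lower in naïve cells, and over all genes tested 26.4% were higher and 25.4% lower. KRAB members made up 21 of the calls, 12 higher and 9 lower of 69 tested. Of the 25 members without the box, 3 were higher and 8 lower. The median difference, naïve minus primed on the log2 scale, was 0.07 for the KRAB members, -0.11 for those without the box, -0.13 for the 227 other numbered Zfp genes tested, of which 45 were higher and 68 lower, and 0.0018 over all genes. Between the quartiles the KRAB members ranged from -0.12 to 0.27. The median over all 95 members was 0.05, and it was -0.06 without naïve WT replicate 3, -0.02 without primed mutant replicate 1 and -0.04 with a correction for GC content, so its sign depended on these. On the variance-stabilised scale 1 call, Zfp931, exceeded 1, and the 62 members that were not called ranged from -0.41 to 0.48. This scale understates the differences of weakly expressed genes. Limma-voom on the recovered reads called 32 members, against 51.4% of all genes in that fit. Of the 32, 8 exceeded 1, and the share of all genes over 1 is not given here for either scale. Without the 2 libraries that stood apart, 38 members were called, 19 in each direction, of which 32 were among the 33, against 55.1% of all genes in the same fit. Without primed mutant replicate 3 alone, 42 were called, 24 of them higher, against 54.2% of all genes. After correction for GC content 34 were called, 12 higher and 22 lower, against 56.1% of all genes, so the balance of directions depended on that correction. The 19 members that share more than 10% of their read-length stretches held 5 of the calls, and 28 of the 76 others were called, 12 higher and 16 lower.

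**Figure D2:**
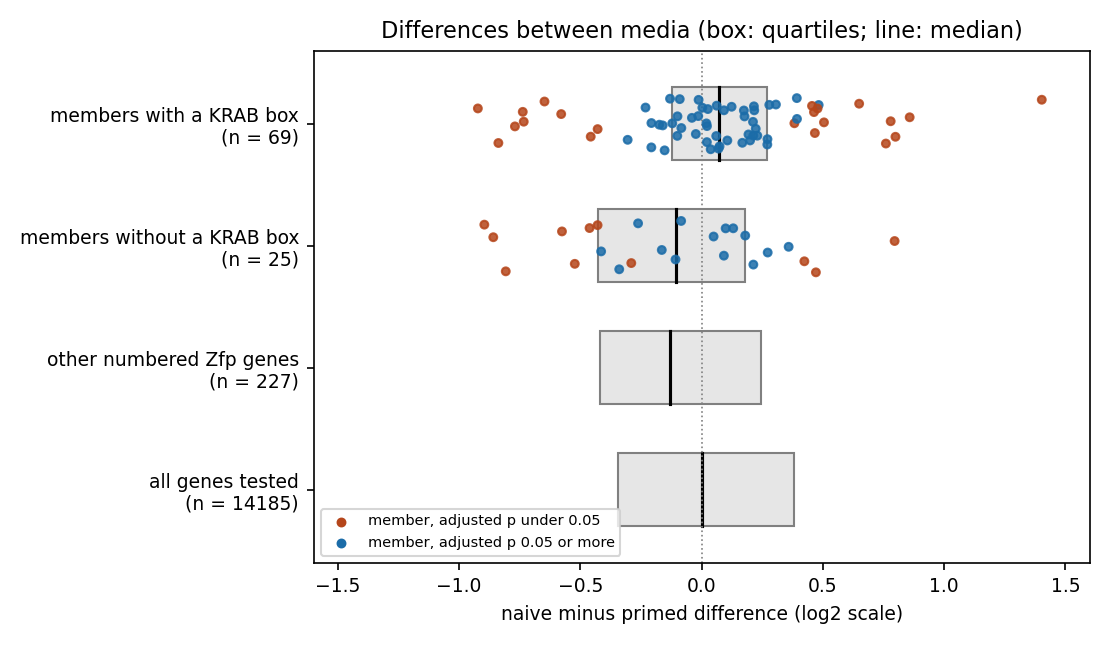
Naïve minus primed difference (horizontal axis, log2 scale) of the members with and without a KRAB box, each point being 1 gene, beside the quartiles and median of the other numbered Zfp genes and of all genes tested. Red points passed an adjusted p under 0.05; the KRAB median is 0.07 and the median of the members without the box is -0.11.

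For 8 of the 33 called members the 6 naïve and the 6 primed libraries did not overlap, 3 being higher and 5 lower in naïve cells. That is 8.42% of the members tested, against 23.6% of all genes tested. The member with the largest difference, Zfp931, was not among them.

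Zfp931 on chromosome 2 (mm9 chr2:177802400-177813181, minus strand), with 7 fingers and a KRAB box, had a lowest, median and highest value of 7.57, 8.01 and 8.68 in naïve and of 5.91, 6.53 and 7.60 in primed libraries. The ranges overlapped at 1 pair of libraries, primed mutant replicate 3 at 7.60 and naïve mutant replicate 3 at 7.57. Its difference was 1.40 ± 0.21 (SE), or 2.64-fold on this scale (adjusted p = 3.42e-05), and 16.3% of its read-length stretches are shared with other places in the genome. The call was kept at each of the 23 settings tried, with differences from 1.15 to 1.66.

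Zfp775 on chromosome 6 (chr6:48563179-48573226, plus strand) has 11 fingers and no KRAB box. Its values were 7.10, 7.24 and 7.66 in naïve and 6.33, 6.54 and 6.74 in primed libraries, with no overlap, and the difference was 0.80 ± 0.13 (adjusted p = 8.70e-05). Zfp773 on chromosome 7 (chr7:7083389-7089466, minus strand) has 8 fingers and a KRAB box. It was at 7.04, 7.10 and 7.39 in naïve and at 6.21, 6.39 and 6.53 in primed libraries, again apart, with a difference of 0.78 ± 0.12 (adjusted p = 6.26e-05).

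Zfp819, a KRAB member on chromosome 7 (chr7:50862539-50873655, plus strand) whose protein is known to bind TRIM28 and to repress retroelements in pluripotent cells, was at 7.76, 8.05 and 8.61 in naïve and at 7.17, 7.30 and 7.56 in primed libraries. All naïve libraries lay above all primed ones. The difference was 0.76 ± 0.14, or 1.69-fold (adjusted p = 0.000343), and none of its read-length stretches are shared. Per kilobase, its mean level was 112.5 normalised reads in naïve WT, 93.2 in naïve mutant, 51.1 in primed WT and 59.5 in primed mutant cells.

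Zfp872 and Zfp712, both with a KRAB box, were higher in naïve cells with some overlap. Zfp872 (chr9:22001511-22005068, plus strand) was at 5.13, 5.64 and 5.87 in naïve and at 3.81, 4.91 and 5.19 in primed libraries, where primed mutant replicate 1 had no read. Its difference was 0.86 ± 0.19 (adjusted p = 0.00153), and 0.69 without that library. By limma-voom it was 2.08 (adjusted p = 0.00142). Zfp712 (chr13:67139530-67162106, minus strand), with 20 fingers, was at 6.40, 6.78 and 7.09 against 5.12, 5.95 and 6.62, a difference of 0.80 ± 0.22 (adjusted p = 0.00655), and 1.11 by limma-voom.

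Among the members that were lower in naïve cells, Zfp956 (chr6:47903389-47915299, plus strand), with 6 fingers and no KRAB box, was at 5.26, 6.09 and 6.28 in naïve and at 6.37, 6.96 and 7.08 in primed libraries. The groups did not overlap, and the difference was -0.90 ± 0.17 (adjusted p = 0.000446), and -1.28 by limma-voom. Zfp771 (chr7:134388040-134398317, plus strand), with 8 fingers and no KRAB box, was at 7.68, 9.01 and 9.39 in naïve and at 9.40, 9.53 and 10.19 in primed libraries. Here the highest naïve and the lowest primed library lay next to each other, and the difference was -0.86 ± 0.23 (adjusted p = 0.00577).

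Zfp865 (chr7:4971978-4984740, plus strand), which has 20 fingers and no KRAB box, was at 6.27, 7.06 and 7.50 in naïve and at 7.51, 7.82 and 8.21 in primed libraries, a difference of -0.81 ± 0.19 (adjusted p = 0.00194). The KRAB member Zfp949 (chr9:88442858-88465924, plus strand) was at 6.71, 6.85 and 7.22 in naïve and at 7.29, 7.58 and 7.89 in primed libraries, a difference of -0.65 ± 0.14 (adjusted p = 0.00106). Neither gene overlapped between the media. Zfp783 (chr6:47893194-47903153, plus strand), the member with no coding transcript, was also apart but close to the lowest value of the scale, at 3.81, 4.67 and 4.91 against 4.97, 5.10 and 5.62, with at most 28 reads in a library, and its difference was -0.64 ± 0.17 (adjusted p = 0.00505). By limma-voom it was -1.82 (adjusted p = 0.00390).

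The lowest difference of all members was that of Zfp936 (chr7:50442540-50445851, plus strand), a KRAB gene with 11 fingers and 1 of the highest levels per kilobase. It was at 7.68, 8.39 and 10.23 in naïve and at 9.20, 9.34 and 10.34 in primed libraries. The spread in naïve cells was wide, with naïve WT replicate 3 at 10.23 above all but 1 of the primed libraries. The difference was -0.92 ± 0.31 (adjusted p = 0.0199), and 20.3% of its read-length stretches are shared. The call was lost without naïve mutant replicate 1 (adjusted p = 0.0504) and without primed mutant replicate 3 (adjusted p = 0.0527), while the adjusted p over all settings ran from 0.000156 to 0.0527. Without naïve WT replicate 1 the difference was -0.60. Zfp933, a KRAB gene chosen here after its values were seen because only 3 members had a lower difference, was at 6.10, 6.57 and 7.47 in naïve and at 7.29, 7.42 and 8.05 in primed libraries, a difference of -0.84 ± 0.20 (adjusted p = 0.00206) with overlap.

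**Figure D3:**
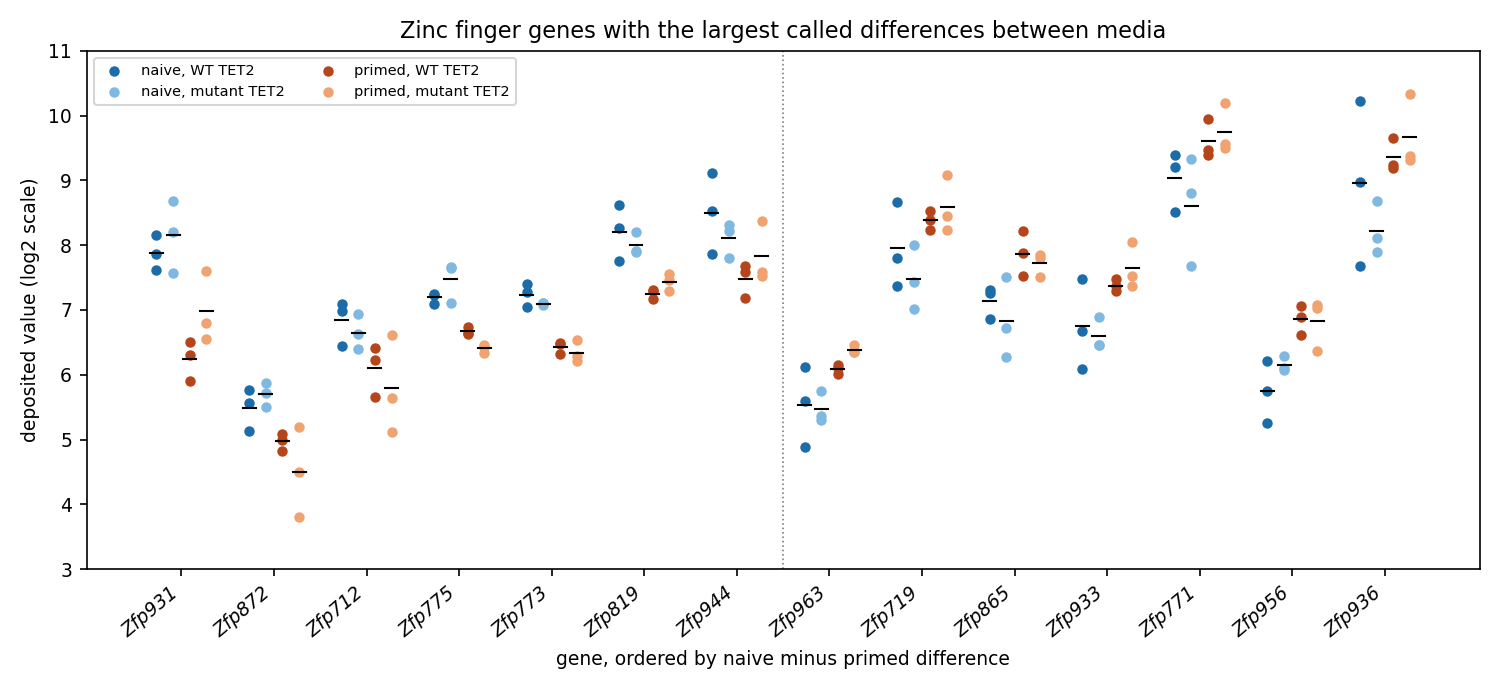
Deposited values (vertical axis, log2 scale) of the 14 members with the largest called differences, 7 in each direction, in the order of the naïve minus primed difference (horizontal axis); each point is 1 library and each black line the mean of 3. Zfp931, at the left, is at 7.57 to 8.68 in naïve and 5.91 to 7.60 in primed libraries, and Zfp936, at the right, spreads from 7.68 to 10.23 in naïve libraries.

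Members with a described function were followed whether or not they differed. Zfp809 (chr9:22030274-22047641, plus strand), the repressor of murine leukaemia viruses, was at 8.32, 8.46 and 8.94 in naïve and at 8.29, 8.55 and 8.88 in primed libraries. The groups overlapped throughout and the difference was 0.03 ± 0.13 (adjusted p = 0.887). Zfp932, whose protein binds endogenous retroviruses, differed by -0.02 ± 0.20 (adjusted p = 0.929), with 44.8% of its read-length stretches shared. Zfp708, which is known to bind a retroelement class, differed by 0.06 ± 0.17 (adjusted p = 0.778).

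Of the members without a role at retroelements, Zfp706, which takes part in the exit from pluripotency, was at 11.34, 11.51 and 11.77 in naïve and at 11.18, 11.31 and 11.69 in primed libraries, a difference of 0.18 ± 0.12 (adjusted p = 0.213). Zfp746, also known as PARIS and a target of parkin, differed by 0.22 ± 0.12 (adjusted p = 0.159), Zfp704 by 0.21 ± 0.20 (adjusted p = 0.392) and Zfp750, a regulator of epidermal differentiation, by 0.27 ± 0.16 (adjusted p = 0.166). The other 4 genes of this kind were called. Zfp703 was higher in naïve cells by 0.42 ± 0.14 (adjusted p = 0.0185) and the X-linked Zfp711 by 0.47 ± 0.17 (adjusted p = 0.0326). Zfp830, also known as Omcg1 and needed by the early embryo, was lower, with a difference of -0.52 ± 0.13 (adjusted p = 0.00239), at 8.41 to 9.15 against 9.14 to 9.43. Zfp827, whose human counterpart acts at telomeres, had a difference of -0.46 ± 0.18 (adjusted p = 0.0449). The calls of Zfp711 and Zfp827 held in 14 and 13 of the 23 settings and were lost without some of the libraries. Their adjusted p ran from 0.00348 to 0.103 and from 0.0125 to 0.134.

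Within the lines, 18 members differed between naïve and primed WT cells (18.9%, against 35.9% of all genes tested) and 21 between naïve and primed mutant cells (22.1%, against 35.2%). In the WT line 11 were higher and 7 lower in naïve cells (18.6% and 17.3% of all genes tested), and in the mutant line 7 were higher and 14 lower (18.3% and 16.9% of all genes tested). The median difference over the members was 0.24 in the WT and -0.14 in the mutant line. Without the 2 libraries that stood apart, of which each line holds 1, the medians were -0.0015 and 0.02. As these libraries were picked for high KRAB levels, the direction of both shifts follows from that choice. The calls were then 22 in the WT line, 10 higher and 12 lower, and 23 in the mutant line, 9 higher and 14 lower. Of all genes in the same fit, 38.1% and 38.5% were called. In the WT line 14 were called without naïve WT replicate 3, of which 4 were higher (4685 of all 14203 genes), 10 without primed WT replicate 3 (26.3% of all genes), and 6 without primed WT replicate 1 (24.7% of all genes). In the mutant line 9 were called without naïve mutant replicate 1 (25.7% of all genes) and 13 without naïve mutant replicate 2 (25.2% of all genes). The 2 comparisons share no library, and 7 members, or 7.37%, passed in both, against 26.1% of all genes tested. The direction was the same in each: Zfp931, Zfp775, Zfp773 and Zfp819 were higher in naïve cells, and Zfp956, Zfp865 and Zfp828 were lower. Zfp828 was chosen here after its values were seen. For Zfp931 the difference was 1.64 in the WT line (adjusted p = 0.000444) and 1.17 in the mutant line (adjusted p = 0.00569). For Zfp819 it was 0.96 (adjusted p = 0.00175) and 0.56 (adjusted p = 0.0398), and for Zfp956 it was -1.12 (adjusted p = 0.00231) and -0.68 (adjusted p = 0.0425).

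Members of a cluster share position and sequence and are not replicates, and 3 of the 9 clusters held calls in both directions. Between the media 51.8% of all genes tested and 34.7% of the members tested were called, so calls within a cluster are not read as a trait of it. On chromosome 6 (chr6:47769265-48573226), a cluster of 6 held Zfp783 and Zfp956, both lower in naïve cells, and Zfp775, which was higher. On chromosome 7 (chr7:48888573-50873655), 4 of 5 members were called: Zfp819 and Zfp788 were higher, and Zfp936 and Zfp719 were lower, the last with -0.77 ± 0.22 (adjusted p = 0.00671). A further chromosome 7 cluster (chr7:134388040-134550336) had a median difference of -0.37 over 4 members, with Zfp771 and Zfp747 called lower. On chromosome 8 (chr8:71750242-72315077), Zfp963 with -0.74 ± 0.17 (adjusted p = 0.00215; -1.21 by limma-voom) and its neighbour Zfp866 with -0.73 ± 0.17 (adjusted p = 0.00149) were lower, and the other 4 of 6 were not called. The largest cluster, 10 KRAB members on chromosome 17 (chr17:21704010-23004101), had a median difference of 0.09, and 1 member, Zfp944, was called, with 0.65 ± 0.20 (adjusted p = 0.0127). In the other chromosome 17 cluster (chr17:32908181-33170347), Zfp811 with 0.46 ± 0.14 (adjusted p = 0.0130) and Zfp799 with 0.45 ± 0.17 (adjusted p = 0.0292) were higher of 6. The call of Zfp799 was lost in 7 of the 23 settings. Each of the remaining clusters, on chromosomes 7, 9 and 13, held 1 or 2 calls, led by Zfp865 and Zfp773, by Zfp872 and by Zfp712.

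**Figure D4:**
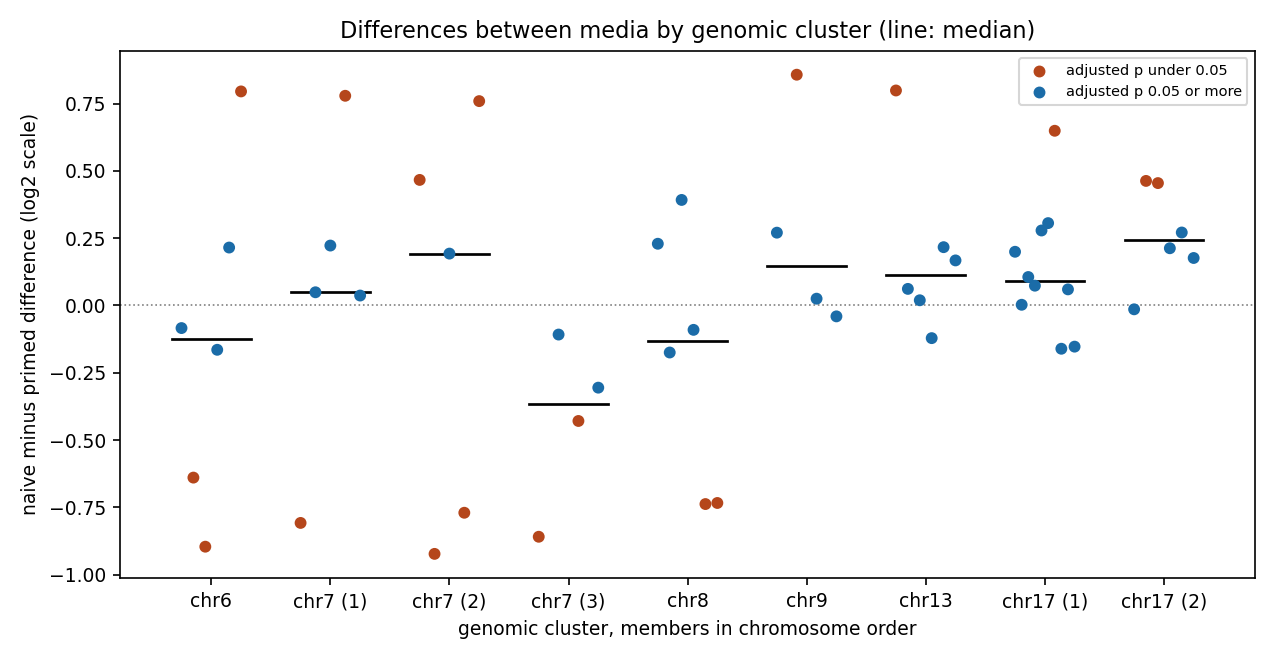
Naïve minus primed difference (vertical axis, log2 scale) of the tested members of each of the 9 genomic clusters (horizontal axis), drawn in chromosome order; each point is 1 gene, red where the adjusted p was under 0.05, and the line is the median of the cluster. The third chromosome 7 cluster has a median of -0.37, and the chromosome 6 cluster holds calls in both directions.

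The genes of the machinery that KRAB proteins recruit were read beside them, from a list of 23. Of these, 11 were lower in naïve cells and none was called higher (47.8% called, against 51.8% of all genes tested). Trim28, the KRAB corepressor, was lower, with a difference of -1.01 ± 0.13 (adjusted p = 9.30e-06), at 13.37 to 13.98 in naïve and 14.45 to 15.06 in primed libraries, with no overlap. Chd3, a NuRD remodeller that binds TRIM28, had a difference of -1.39 ± 0.20 (adjusted p = 2.18e-05), Smarcad1, a remodeller that acts with TRIM28, of -1.19 ± 0.23 (adjusted p = 0.000435), and Cbx1, an HP1 protein, of -0.63 ± 0.11 (adjusted p = 0.000131). Setdb1, the target of the hairpin in all cells, had -0.44 ± 0.18 (adjusted p = 0.0472). Among the genes that were not called were Dnmt1 with 0.16 ± 0.17 (adjusted p = 0.463) and Ehmt2 with -0.17 ± 0.13 (adjusted p = 0.291).

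The last comparisons set the WT beside the mutant rescue line. These differ in the catalytic activity of TET2, and also in Tet2 RNA and at Y-linked genes. No member passed between WT and mutant TET2, in naïve cells (0 of 95, against 0.0987% of all genes tested) or in primed cells (0 of 95, against 0.254%). At an unadjusted p under 0.05 there were 4 members in naïve and 6 in primed cells (limma), against 13.3% and 16.2% of all genes tested. Limma-voom on the recovered reads gave 0 calls in each, with 5 and 6 members at an unadjusted p under 0.05. These fits did not pair libraries of the same number, although the naïve ones deviated together. When a replicate block was used, members reached such a p in naïve cells about as often as all genes (19.7%; limma). The shortfall in naïve cells therefore depended on the fit. In primed cells, where the numbers did not pair the libraries, members stayed below the share of all genes (21.5%). With a correction for GC content together with the replicate number as a block, 4 members were called in naïve and 7 in primed cells, against 4.65% and 13.6% of all genes in that fit, so the absence of calls depended on the fit. An exact two-sided permutation test of 3 against 3 libraries cannot go below p = 0.1, and with these spreads small differences were not detectable. Larger ones could be missed too. In simulated reads with a log2 change of 1, the fit recovered 51 of 100 changed genes between the naïve lines and 92 of 100 between the media. The changed genes were drawn from all genes tested, with a smoothed spread and without the shared library deviations seen here. Far fewer genes were changed than were called between the media. These rates are therefore not those of the members. The mean of 4 markers of 2-cell-like cells also separated the lines, at 5.41 to 5.61 in naïve WT against 5.70 to 6.34 in naïve mutant libraries, and at 5.02 to 5.45 in primed WT against 5.93 to 7.67 in primed mutant libraries. Its part in the differences between the lines was not tested.

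In naïve cells the smallest unadjusted p belonged to Zfp935, a KRAB gene on chromosome 13 (chr13:62555683-62568128, minus strand) with 15.4% of its stretches shared. It was at 7.13, 7.25 and 8.01 in the WT and at 6.63, 6.54 and 6.74 in the mutant libraries. The 3 WT libraries lay above the 3 mutant ones, and the difference was 0.83 ± 0.31 (adjusted p = 0.299, and from 0.0386 to 0.705 over the settings tried). Zfp882, also with a KRAB box, was at 7.28, 7.79 and 8.94 against 6.79, 6.93 and 7.56. Its groups overlapped, and the difference of 0.91 ± 0.37 (adjusted p = 0.324) was 0.44 without naïve WT replicate 3. Zfp846 had a difference of 0.43 ± 0.19 (adjusted p = 0.360) and Zfp787 of -0.43 ± 0.20 (adjusted p = 0.365), and neither overlapped between the lines. Zfp809 was at 8.40, 8.82 and 8.94 in the WT and at 8.32, 8.40 and 8.52 in the mutant libraries, with a difference of 0.31 ± 0.19 (adjusted p = 0.473).

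In primed cells Zfp750, which has no KRAB box, was at 7.13, 7.06 and 6.91 in the WT and at 5.81, 6.57 and 6.37 in the mutant libraries. All WT libraries lay above the mutant ones, with a difference of 0.78 ± 0.23 (adjusted p = 0.172). The KRAB gene Zfp867 was at 7.22, 7.76 and 7.37 against 7.86, 8.07 and 8.32, the reverse order, with a difference of -0.64 ± 0.20 (adjusted p = 0.204). Zfp958, the member with the highest level per kilobase, had -0.76 ± 0.27 (adjusted p = 0.216), and its lines overlapped. Zfp931 was at 5.91, 6.51 and 6.30 in the WT and at 6.80, 6.55 and 7.60 in the mutant libraries, all above the WT ones, with a difference of -0.74 ± 0.29 (adjusted p = 0.249). Leaving out primed mutant replicate 3 brought that difference to -0.44. Zfp809 differed by 0.05 ± 0.19 (adjusted p = 0.915).

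**Figure D5:**
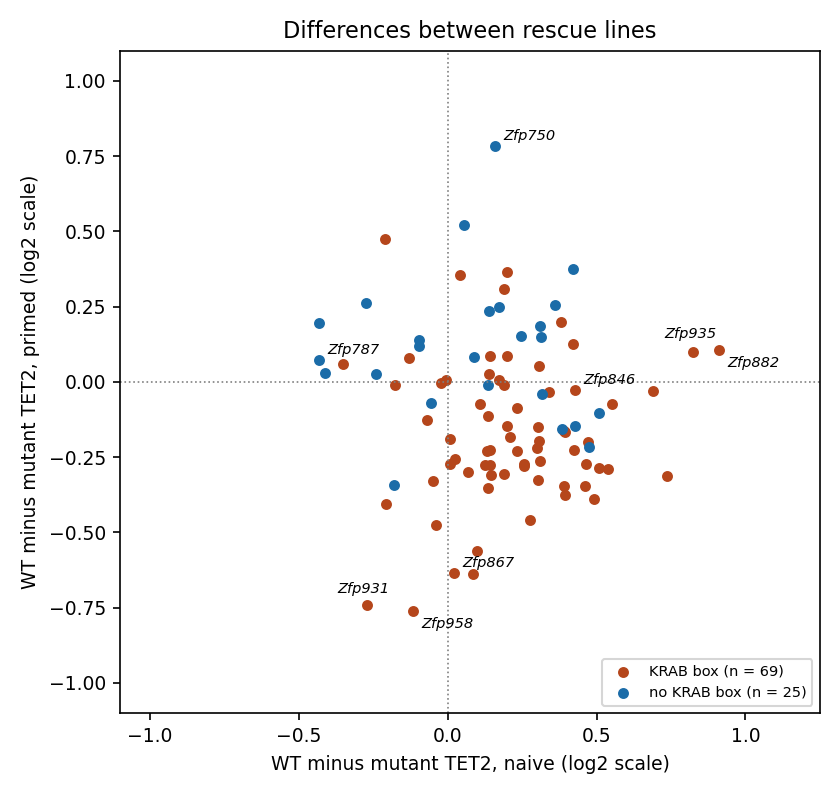
WT minus mutant TET2 difference of each tested member with a coding transcript in naïve cells (horizontal axis, log2 scale) and in primed cells (vertical axis, log2 scale); each point is 1 gene, coloured by the KRAB box, and the genes with the smallest unadjusted p are named. No point passed an adjusted p under 0.05; the KRAB medians are 0.20 in naïve and -0.20 in primed cells.

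The median WT minus mutant difference over the 95 members was 0.19 in naïve cells, with 73 above and 22 below 0, and -0.11 in primed cells, with 34 above and 61 below 0, while the medians over all genes were 0.0032 and 0.0087. KRAB members had medians of 0.20 and -0.20, members without the box 0.14 and 0.12, and the 227 other numbered Zfp genes 0.16, with 179 above 0, and 0.05, with 128 above 0. The medians of the KRAB members thus had opposite signs in the 2 media, and those of the members without the box did not. Of the 2 libraries that stood apart, 1 is a WT library in naïve and the other a mutant library in primed cells. Without them the medians over the members were 0.03 in both media. As they were picked for high KRAB levels, a fall in naïve and a rise in primed cells follow from that choice. The same holds for the difference between media below. For the difference between the media of the WT minus mutant difference, 0 members and 0 of all genes passed (limma). An unadjusted p under 0.05 was reached by 4 members, against 3.45% of all genes tested. Limma-voom gave 0 calls and 6 members at an unadjusted p under 0.05, against 3.91% of all genes. The smallest unadjusted p belonged to the KRAB genes Zfp942 with 0.88 ± 0.35, Zfp867 with 0.66 ± 0.29 and Zfp961 with 0.65 ± 0.29 (adjusted p = 0.976 for each). Without the 2 libraries these were 0.34, 0.36 and 0.23. The median over the members was 0.35, and -0.03 without the 2 libraries.

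The 23 genes of the KRAB machinery were not called between the lines in either medium (0 and 0, against 0.0987% and 0.254% of all genes tested), with 7 in naïve and 5 in primed cells at an unadjusted p under 0.05 (limma), against 13.3% and 16.2% of all genes tested. Atf7ip, a partner of SETDB1, had a difference of 0.62 in naïve (adjusted p = 0.310) and 0.68 in primed cells (adjusted p = 0.216). Trim28 differed by 0.28 in naïve (adjusted p = 0.511) and by 0.14 in primed cells (adjusted p = 0.742).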

How the data were processed

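RNA was sequenced from 12 non-directional poly(A) libraries, 3 for each of the 4 groups given by the labels. Per the labels and the study's methods, the authors trimmed reads with Trim Galore 0.3.3, aligned them to mm9 with TopHat2 2.0.9, placing reads with several best positions at random, and passed gene counts through the variance-stabilising transformation of DESeq2. The deposited file holds the result, on a log2 scale. The counting tool and annotation are not given in the sources used here. The deposited log2 values could be turned back into whole reads, with 100% of values within 0.05 of a whole number. The totals were 8066662 to 21335933 gene reads, so a value of a few reads carries large counting error.

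The members and the lists were chosen with earlier results of these data known. Genes with a mean at least 1 above the lowest value (14185) were tested with limma 3.58.1 (R 4.3.3) with an intensity trend, the 4 groups in 1 fit, in 6 comparisons, with Benjamini-Hochberg adjustment over all genes, and were called at an adjusted p under 0.05. Count models of the kind the study used were not the main test, since the deposited values are not counts. The script was tested on simulated data. Gene positions, exon GC content and shared 75-base stretches came from the mm9 genome and its GENCODE annotation. A KRAB A box and fingers were sought by letter patterns in translated coding transcripts, the box in the first 200 residues. Promoter windows came from RefSeq (GRCm38.p6).

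Named members were those called without overlap between media, those with the smallest unadjusted p between the rescue lines and for the difference between media (4, 4 and 3), members with a known role, the 5 with the highest level per kilobase, the 3 on each side of the filter and the leading members of each cluster. Zfp933 and Zfp828 were added after their values were seen. Alternatives changed the filter, variance trend, scaling, replicate block, threshold, unit (limma-voom on recovered reads) and samples in the fit, and left out each library. Leaving out 2 libraries together and the GC correction were chosen after seeing the data. Same-numbered naïve WT and mutant libraries deviated together over all genes, with correlations of 0.586, 0.3 and 0.385, so their numbers were read as pairs from the data. Those of the primed libraries were 0.161, -0.0652 and 0.189. Naïve WT and mutant libraries of unlike number ran from -0.379 to -0.00718. Across the media, libraries of unlike number reached 0.545 (naïve WT replicate 2 with primed mutant replicate 1). Correlations of this size were therefore not limited to the naïve pairs. Repeat-class values were not used here.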

Additional observations from a re-analysis of the deposited data

How the results depend on the processing

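Leaving out each library in turn gave 24 to 42 called members between the media (33 with all libraries), 6 to 24 in the WT line (18), 9 to 23 in the mutant line (21), and 0 to 0 in both comparisons of the rescue lines and in the difference between media. The fewest between the media, 24, were called without primed WT replicate 1, against 46.4% of all genes. The most, 42 with 24 higher, were called without primed mutant replicate 3, against 54.2%. The WT line ran from 6 without primed WT replicate 1 to 24 without primed mutant replicate 3, against 24.7% and 39.7% of all genes. The mutant line ran from 9 without naïve mutant replicate 1 to 23 without naïve WT replicate 1, against 25.7% and 36.7%. Requiring also a difference over 1 left 1 member between the media, 3 in the WT line and 7 in the mutant line. At an adjusted p under 0.1 there were 30 in the WT line. The shares of all genes at these limits are not given here. The GC correction with the replicate block, chosen after seeing the data, called 4 members between the rescue lines in naïve cells (Zfp771, Zfp882 and Zfp935 higher and Zfp931 lower with WT TET2) and 7 in primed cells (Zfp710 and Zfp750 higher and Zfp931, Zfp932, Zfp958, Zfp867 and Zfp960 lower). These were named by that fit, in which 4.65% and 13.6% of all genes were called in naïve and primed cells. The cause of the difference from the main fit was not tested.

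For the media, the replicate block joined libraries of the same number across both media, which the labels do not pair. Such libraries had correlations from -0.146 to 0.455. That block alone gave 36 members between the media, against 54.5% of all genes. In each line it gave 25, against 39.5% of all genes in the WT and 38.6% in the mutant line. Between the rescue lines a block within each medium gave 0 in either medium, against 0.254% of all genes in naïve and 1.47% in primed cells. With 19 members in naïve and 10 in primed cells at an unadjusted p under 0.05 (limma), the shares of all genes were 19.7% and 21.5%. The blocks changed no other call count by over 1.5 times. The numbers did not pair the primed libraries. The split into higher and lower moved with scaling: with the GC correction it was 12 and 22 between the media and 9 and 12 in the WT line, and with quantile normalization 4 and 15 in the mutant line. Over all genes the splits in these fits were 3937 and 4006, 2802 and 2760, and 2531 and 2511. The median over the members in the WT line was 0.24, and 0.0015 without naïve WT replicate 3, -0.0015 without the 2 libraries and -0.02 with the GC correction. The median of the difference between media was 0.35, and -0.03 without the 2 libraries, which were picked for their high KRAB levels. No called value of a named gene reversed. For the 3 comparisons with calls, 72 of 80 alternative call counts stayed within 1.5 times, and 474 of 502 alternative values of the 23 called genes named between the media kept their direction and their side of the threshold. With 3 libraries a group, and members at a median level below that of all genes, differences between the rescue lines of the size of 0.2 could not be told from the spread. Differences of 1 could be missed as well, with 51 of 100 recovered between the naïve lines in simulated reads. Alleles, splicing and protein levels were not measured.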
